A study of Mus musculus with 12 samples.

Results

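The genes described here encode the enzymes and chaperones that process collagen chains on their way to a fibril, measured in pools of pancreatic islets of RIP1-Tag2 mice. They were taken from a list of 10 genes by symbol: P4ha1, P4ha2 and P4ha3, Plod1, Plod2 and Plod3, Serpinh1, Fkbp10, Pcolce and Bmp1. Of these, 9 had 1 transcript cluster each that the platform annotation pairs with a single symbol, out of 19938 genes named this way, and Fkbp10 is not reported here. Members were taken by name and not by a threshold on their measured values. The list was, however, chosen with earlier results of these data known. Pcolce and Serpinh1 also belong to the matrix signature that the study selected on these same arrays, so the direction of these genes is not independent evidence.

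New collagen chains are modified in the endoplasmic reticulum before they fold into a triple helix. Prolyl 4-hydroxylase, a tetramer whose catalytic alpha subunits are encoded by the P4ha genes, makes the hydroxyproline that stabilises the helix, while the lysyl hydroxylases encoded by the Plod genes make the hydroxylysine used for glycosylation and crosslinks. The chaperone HSP47, encoded by Serpinh1, holds the folded helix until it leaves the endoplasmic reticulum. Outside the cell, the metalloproteinase encoded by Bmp1 removes the C-terminal propeptide of fibrillar procollagens, and the glycoprotein encoded by Pcolce speeds up this step.

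Each of the 12 Affymetrix arrays measured total RNA from 1 pool of islets, 6 pools labelled angiogenic and 6 labelled non angiogenic. All pools came from 8 week old Rip1Tag2 mice on the C57BL/6 background. In these mice the rat insulin promoter drives the SV40 T antigen in beta cells, so both groups carry the oncogene. The study calls both groups tumor islets, and describes the transformation in this model as one of a fraction of the islets. Islets were freed with collagenase, purified on a density gradient and sorted by their appearance, and no other treatment distinguishes the groups. How many mice or islets made up a pool is not stated, nor whether each pool had mice of its own, and p-values here cover the variation among these 12 pools.

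Levels are on the log2 scale of RMA, which brings arrays to a common distribution, and array medians were 7.30 to 7.38. The markers of beta cells had a mean level of 11.80 to 11.92 in angiogenic and 11.81 to 12.02 in non angiogenic pools. By limma at an adjusted p under 0.05, 1 of 11 was lower, against 0.948% of all genes. At an unadjusted p under 0.05, 3 were lower and 1 was higher, against 6.59% and 7.76% of all genes. Replicates 1 to 3 and replicates 4 to 6 are also compared on their own, as 2 sets with 3 pools of each group. The study describes its array measures of stromal markers as means of 2 independent profiling experiments. The labels do not say whether these sets are those experiments, so it is not known whether the 6 pools of a group were profiled together. Nor is it known whether the 3 pools of a group in a set repeat 1 experiment. The p-values over 12 pools, exact tests included, treat the pools as independent. They would be too small if pools repeat an experiment. Groups were compared with limma, and p-values were adjusted by the Benjamini-Hochberg method over all 19938 genes. In bulk RNA of whole islets, a change in the number of cells that express a gene and a change in the RNA per cell cannot be told apart.

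Reference promoters show which genes stand side by side in the results, namely Pcolce and Serpinh1, which differed most between the groups, and P4ha1 and P4ha2, which differed least. Each line gives the 250 bases before the start site from RefSeq on GRCm38.p6, read 5′ to 3′ on the strand of the gene, at chr5:137611405-137611654 (minus strand) for Pcolce, chr7:99353240-99353489 (minus) for Serpinh1, chr10:59323046-59323295 (plus) for P4ha1 and chr11:54100674-54100923 (plus) for P4ha2. Capitals mark ACGTG and GCGTG on either strand, so that CACGT and CACGC are the same letters read from the other strand. These are the core letters of the hypoxia response element, shown because P4ha1, P4ha2 and Plod2 are known targets of the hypoxia-inducible factors.
Pcolce: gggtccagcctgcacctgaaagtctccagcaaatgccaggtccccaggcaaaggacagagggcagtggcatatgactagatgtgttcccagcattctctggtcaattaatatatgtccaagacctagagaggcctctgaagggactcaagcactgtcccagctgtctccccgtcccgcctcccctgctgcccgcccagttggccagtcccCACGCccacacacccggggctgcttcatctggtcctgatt
Serpinh1: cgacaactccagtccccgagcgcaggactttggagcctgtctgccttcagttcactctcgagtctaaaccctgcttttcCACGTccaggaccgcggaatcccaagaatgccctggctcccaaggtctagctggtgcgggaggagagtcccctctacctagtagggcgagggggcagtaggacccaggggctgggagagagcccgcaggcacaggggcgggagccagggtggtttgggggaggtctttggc
P4ha1: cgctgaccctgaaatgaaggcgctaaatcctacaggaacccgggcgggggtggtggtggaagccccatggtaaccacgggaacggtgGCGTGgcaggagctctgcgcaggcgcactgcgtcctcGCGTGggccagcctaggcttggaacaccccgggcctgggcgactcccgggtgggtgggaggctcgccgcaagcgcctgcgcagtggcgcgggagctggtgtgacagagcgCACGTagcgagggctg
P4ha2: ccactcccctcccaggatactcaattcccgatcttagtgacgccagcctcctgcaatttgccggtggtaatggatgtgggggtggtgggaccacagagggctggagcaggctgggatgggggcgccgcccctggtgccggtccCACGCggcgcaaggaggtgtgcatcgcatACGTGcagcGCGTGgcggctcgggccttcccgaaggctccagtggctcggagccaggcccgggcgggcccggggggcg

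The promoters of P4ha1 and P4ha2 held 3 of these matches each, and those of Pcolce and Serpinh1 held 1 each. The match of Pcolce lay 40 bases and that of Serpinh1 171 bases before the start site, while those of P4ha2 lay within 107 bases. Of the other members, Plod3 held 4 matches, Plod1 held 1 and P4ha3 held 0. At least 1 match was present in 38.6% of 32851 RefSeq promoter windows of the same length, so the letters are common, and a match describes the sequence and is not a binding site. Base composition also differed, with 69.6% G and C in the window of P4ha1 and 70.0% in that of P4ha2, against 63.6% for Serpinh1 and 58.8% for Pcolce. The TATA letters TATAAA were found for Plod1 and the CCAAT letters for Plod3, against 12.4% and 33.8% of all windows. The GC box GGGCGG, present in 32.7% of all windows, was found for 6 of the 7 members with a promoter entry and 5 times in the window of P4ha3, where neighbouring matches can overlap. Plod2, Fkbp10 and Bmp1 had no entry.

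Angiogenic islets had higher levels of some of these genes and no detectable difference in others. At an adjusted p under 0.05 from limma, 5 of the 9 members were higher in angiogenic islets, against 3.55% of all genes, and 0 were lower, against 0.948%. The 5 genes were Pcolce, Serpinh1, Plod2, Plod1 and P4ha3. At an unadjusted p under 0.05, 7 members were higher, against 7.76% of all genes, and 0 were lower, against 6.59%. The methods' t-test after Benjamini-Hochberg adjustment called 5 higher, against 2.94% of all genes, and 0 lower, against 0.903%. In 4 members every angiogenic pool lay above every non angiogenic pool, which held for 2.85% of all genes. The median log2 difference of the 9 members was 0.33, and that of all genes was -0.02.

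**Figure D1:**
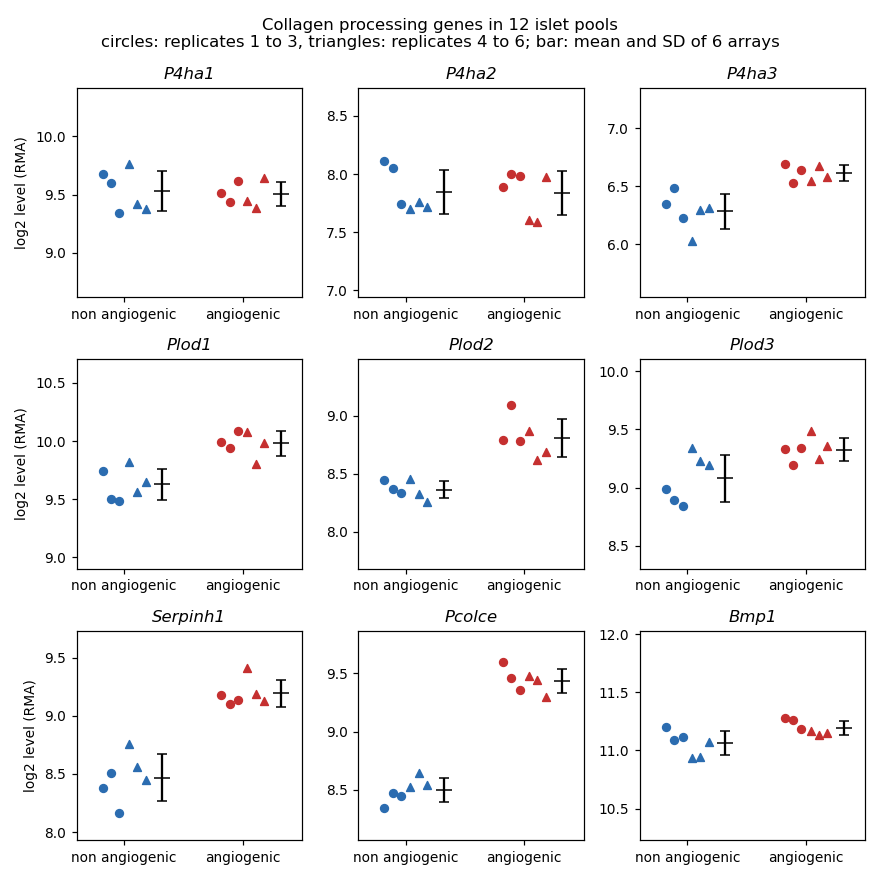
Log2 level (RMA) of 9 collagen processing genes in each pool, with non angiogenic islets in blue, angiogenic islets in red, replicates 1 to 3 as circles, replicates 4 to 6 as triangles, and bars for the mean and SD of 6 arrays. The groups do not overlap for P4ha3, Plod2, Serpinh1 and Pcolce, and lie on top of each other for P4ha1 and P4ha2.

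Of the prolyl 4-hydroxylase alpha subunits, P4ha3 was the one that was higher in angiogenic islets. Its lowest, median and highest log2 levels were 6.53, 6.61 and 6.69 in angiogenic pools, and 6.03, 6.30 and 6.48 in non angiogenic pools. The lowest angiogenic pool thus lay just above the highest non angiogenic pool. The mean was 6.61 ± 0.07 (SD, n = 6) against 6.28 ± 0.15 (SD, n = 6), a log2 difference of 0.33 ± 0.07 (SE) and a ratio of 1.25 (limma, adjusted p = 0.00885). The gene is dim on these arrays, where RMA compresses differences, and it falls outside the fit restricted to genes above the median level. In replicates 1 to 3 the difference was 0.27 and in replicates 4 to 6 it was 0.39 (limma, adjusted p = 0.143 and 0.0386).

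P4ha1, which encodes the alpha subunit found in most cell types, had log2 levels of 9.39, 9.48 and 9.64 (lowest, median and highest) in angiogenic pools and 9.34, 9.51 and 9.76 in non angiogenic pools. The angiogenic range lay inside the non angiogenic range. The log2 difference was -0.02 ± 0.08 (SE) (limma, adjusted p = 0.952), and its 95% interval of -0.19 to 0.14 corresponds to ratios between 0.877 and 1.11. P4ha2 encodes the second of these subunits, and its levels were 7.59, 7.93 and 8.00 in angiogenic and 7.70, 7.75 and 8.12 in non angiogenic pools. Here the groups overlapped over most of their range, and the difference was -0.01 ± 0.10 (SE) (adjusted p = 0.990), with a 95% interval of the ratio from 0.861 to 1.15. In P4ha2 the set of arrays moved the level more than the group did, since replicates 4 to 6 were lower than replicates 1 to 3 by a log2 difference of -0.24 in angiogenic and -0.25 in non angiogenic pools.

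The difference between the subunits was tested within arrays, as the change of 1 gene relative to another, with exact two-sided permutation tests over all assignments of 6 of the 12 arrays and adjustment over the 7 pairs of members compared. P4ha3 changed relative to P4ha1 by a log2 difference of 0.35 (95% interval 0.09 to 0.61, exact p = 0.00216, the smallest these arrays allow, adjusted p = 0.00758). All angiogenic arrays lay above all non angiogenic arrays, but the lowest angiogenic and the highest non angiogenic array were nearly level. Relative to P4ha2 it changed by 0.33 (95% interval 0.11 to 0.56, adjusted p = 0.0152 from the exact permutation test). Between P4ha2 and P4ha1 the change was 0.02 (95% interval -0.20 to 0.23, adjusted p = 0.896 from the exact permutation test), an interval that leaves room for a ratio either way. The alpha subunit genes therefore did not move by the same amount.

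Of the lysyl hydroxylases, Plod2 and Plod1 were higher in angiogenic islets. Plod2, whose enzyme acts on the telopeptides where crosslinks form, had log2 levels of 8.62, 8.79 and 9.09 (lowest, median and highest) in angiogenic pools and 8.26, 8.35 and 8.46 in non angiogenic pools. The groups did not overlap, and angiogenic replicate 2 was the highest pool. The log2 difference was 0.44 ± 0.07 (SE), a ratio of 1.36 (limma, adjusted p = 0.00156), with 0.51 in replicates 1 to 3 and 0.38 in replicates 4 to 6. Both sets passed on their own (limma, adjusted p = 0.0174 and 0.0389).

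Plod1, whose enzyme hydroxylates lysines of the helical part, had log2 levels of 9.80, 9.99 and 10.09 in angiogenic and 9.49, 9.61 and 9.82 in non angiogenic pools. Of the angiogenic pools, 5 of 6 lay above the highest non angiogenic pool. The difference was 0.35 ± 0.07 (SE), a ratio of 1.28 (limma, adjusted p = 0.00608). It was 0.43 in replicates 1 to 3 (adjusted p = 0.0271) and 0.28 in replicates 4 to 6, which did not pass alone (adjusted p = 0.155).

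Plod3, which encodes an enzyme that also transfers glucose to hydroxylysine-linked galactose, had log2 levels of 9.19, 9.34 and 9.48 in angiogenic and 8.84, 9.09 and 9.34 in non angiogenic pools. The groups overlapped, with 3 of 6 angiogenic pools above the highest non angiogenic pool, and the difference of 0.25 ± 0.08 (SE) did not pass (limma, adjusted p = 0.144). The call depended on the set of arrays. The non angiogenic pools were higher in replicates 4 to 6 than in replicates 1 to 3 by 0.34 on the log2 scale, and the angiogenic pools by 0.07, so that the difference between groups was 0.38 in replicates 1 to 3 (adjusted p = 0.0231) and 0.11 in replicates 4 to 6 (adjusted p = 0.565). With the set as a block, Plod3 passed (limma, adjusted p = 0.0206), and it also passed without non angiogenic replicate 4 (adjusted p = 0.0461).

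No pair of lysyl hydroxylase genes differed detectably in its change. Plod2 changed relative to Plod1 by 0.09 (95% interval -0.09 to 0.26), Plod3 relative to Plod1 by -0.11 (-0.26 to 0.05) and Plod3 relative to Plod2 by -0.19 (-0.46 to 0.07), with adjusted p = 0.391, 0.221 and 0.220 from the exact permutation test. These intervals do not show that the genes changed alike. Thus a call for Plod2 and none for Plod3 does not show a difference between them.

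Serpinh1, the collagen chaperone gene, was the member with the second largest difference. Its log2 levels were 9.10, 9.16 and 9.41 (lowest, median and highest) in angiogenic and 8.16, 8.48 and 8.76 in non angiogenic pools. The groups did not overlap, and the non angiogenic pools were spread more widely. The mean was 9.19 ± 0.11 (SD, n = 6) against 8.47 ± 0.20 (SD, n = 6), a log2 difference of 0.72 ± 0.09 (SE) and a ratio of 1.65 (limma, adjusted p = 1.13e-04). Replicates 1 to 3 had a difference of 0.79 and replicates 4 to 6 one of 0.65, and both passed alone (limma, adjusted p = 0.00129 and 0.00739). By size of the difference it stood at rank 120 of 19938 genes.

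For comparison, no chaperone that serves secreted proteins in general passed the test. Of 17 general chaperones and stress response genes of the endoplasmic reticulum, 0 were higher and 0 lower by limma at an adjusted p under 0.05 (2 higher at an unadjusted p under 0.05, 0 by the methods' t-test after adjustment), and the median log2 difference was 0.01. Over all genes limma called 3.55% higher and 0.948% lower, so 0 of 17 is near the general share. At an unadjusted p under 0.05, 7.76% of all genes were higher. The largest was that of Sdf2l1, a component of chaperone complexes, at 0.23 (adjusted p = 0.309). The difference between Serpinh1 and this list was not tested.

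Pcolce, the enhancer of C-terminal processing, differed most among the members, at rank 48 of 19938 genes. Its log2 levels were 9.30, 9.45 and 9.60 (lowest, median and highest) in angiogenic and 8.34, 8.50 and 8.65 in non angiogenic pools. The lowest angiogenic pool stood well above the highest non angiogenic pool. The mean was 9.44 ± 0.10 (SD, n = 6) against 8.49 ± 0.10 (SD, n = 6), a log2 difference of 0.94 ± 0.06 (SE) and a ratio of 1.92 (limma, adjusted p = 4.93e-07). Its difference reached 1.05 in replicates 1 to 3, against 0.84 in replicates 4 to 6 (adjusted p = 1.19e-04 and 5.66e-04).

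Bmp1, the proteinase gene whose product the Pcolce protein enhances, had log2 levels of 11.14, 11.17 and 11.28 in angiogenic and 10.94, 11.08 and 11.20 in non angiogenic pools. The groups overlapped, with 2 angiogenic pools above the highest non angiogenic pool, and the difference of 0.13 ± 0.05 (SE) did not pass (limma, adjusted p = 0.244). Within arrays, Bmp1 changed relative to Pcolce by -0.81 (95% interval -1.0 to -0.62, exact p = 0.00216, adjusted p = 0.00758), with no overlap between the groups and the same direction in both sets (-0.95 and -0.67). The proteinase gene and the gene of its enhancer therefore differed in their change.

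**Figure D2:**
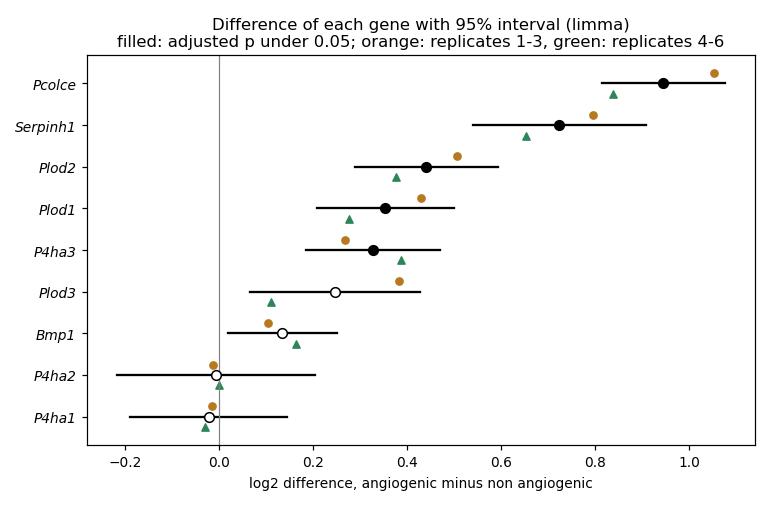
Log2 difference (angiogenic minus non angiogenic) of each member with its 95% interval from limma over 12 arrays, filled where the adjusted p was under 0.05, with the difference in replicates 1 to 3 (orange circles) and 4 to 6 (green triangles). Pcolce stands at 0.94 and Serpinh1 at 0.72, while P4ha1 and P4ha2 lie at 0 within their intervals.

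**Figure D3:**
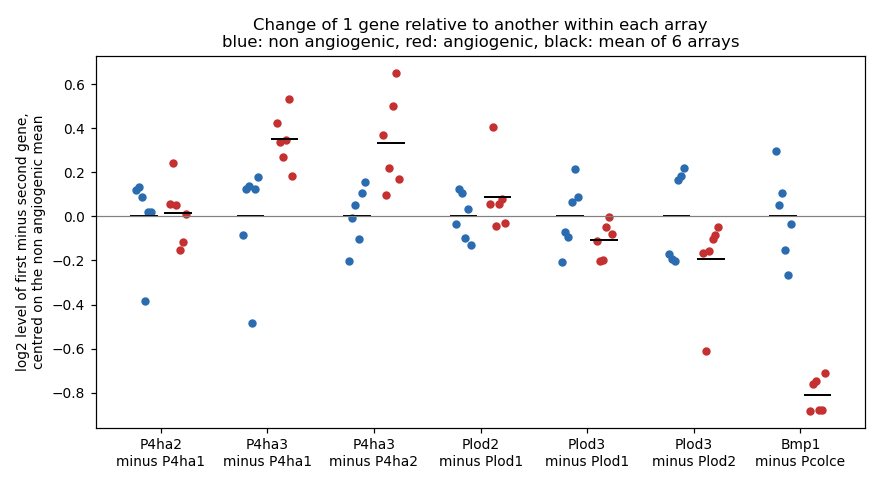
Log2 level of 1 member minus another within each array, centred on the mean of the non angiogenic arrays, for 7 pairs, with points for arrays (blue non angiogenic, red angiogenic) and lines for means. The groups separate clearly for Bmp1 minus Pcolce and only barely for P4ha3 minus P4ha1.

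Across the sets of arrays, 7 of the 9 members had a positive difference in both, and P4ha1 and P4ha2 had slightly negative ones in both, well inside their intervals. The share of all genes with a positive difference in both sets was not computed, so this count shows nothing particular to the members. Replicates 1 to 3 alone called 5 members higher, against 2.37% of all genes, and replicates 4 to 6 alone called 4, against 3.11%. With the set as a block, 6 members were higher, against 5.88% of all genes, the additional one being Plod3. The replicate number as a block gave the same 6 genes, against 5.31% of all genes. The difference was larger in replicates 1 to 3 for 6 members, a count for which the share of all genes was not computed either. By limma at an adjusted p under 0.05, the interaction of group and set passed for 0 of the 9, against 0.00502% of all genes. With a variance trend it also passed for 0 members. At an unadjusted p under 0.05 it passed for 1, Plod3, and the share of all genes at that threshold was not computed. The interaction of Plod3 was -0.27 ± 0.11 (SE) (adjusted p = 0.736).

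Among the other genes of collagen processing, Sparc and the prolyl 3-hydroxylase genes P3h3 and P3h1 were higher in angiogenic islets. Of 25 genes for prolyl 3-hydroxylation, further chaperones and isomerases, glycosylation, propeptide removal and export, 3 were higher and 0 lower by limma at an adjusted p under 0.05 (7 higher and 1 lower at an unadjusted p under 0.05), and their median log2 difference was 0.05. The shares over all genes were 3.55% higher and 0.948% lower, and 7.76% and 6.59% without adjustment. Sparc, which encodes a collagen-binding glycoprotein, was higher by 0.87 (adjusted p = 1.66e-06), and P3h3 and P3h1 by 0.27 and 0.22 (adjusted p = 0.0254 and 0.0344). The calls of P3h1 and P3h3 were lost in 9 and 5 of the 12 fits that omitted an array, where adjusted p reached 0.0816 and 0.0614. P4hb, the beta subunit shared by the prolyl 4-hydroxylases, had a log2 difference of 0.06 ± 0.04 (SE) (adjusted p = 0.617), and is named here after its value was seen.

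Among the listed substrates and crosslinking enzymes, Lox, Loxl1, Col1a1 and Col1a2 had larger differences than any member. By limma 3.55% of all genes were higher. Of 4 lysyl oxidase genes, whose products act on lysines and hydroxylysines of collagen, 3 were higher by limma. Lox was higher by 2.14 on the log2 scale, Loxl1 by 0.98 and Loxl3 by 0.49. Lox and Loxl3 are dim and fall outside the fit restricted to genes above the median level, in which Loxl1 was still called. Of 11 fibrillar collagen genes 4 were higher, with Col1a1 at 1.56, Col1a2 at 1.47 and Col3a1 at 0.94, and of 6 basement membrane collagen genes 2 were higher, Col4a2 at 0.80 and Col4a1 at 0.66. The median log2 difference was 0.73 for the lysyl oxidases, 0.18 for the fibrillar and 0.03 for the basement membrane collagens. Sparc and all of the higher lysyl oxidase and collagen genes are in the signature that the study selected on these arrays, so their direction is not independent evidence.

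Set against the mean of Col1a1, Col1a2 and Col3a1, which was higher by 1.32 in angiogenic islets, every measured member had a smaller difference. Pcolce changed relative to these collagens by -0.38 and Serpinh1 by -0.60 on the log2 scale, while Plod2, Plod1 and P4ha3 changed by -0.88, -0.97 and -0.99. Plod3, Bmp1, P4ha2 and P4ha1 changed by -1.08, -1.19, -1.33 and -1.34. These values are a description with no test and say nothing particular to the members, as the collagen genes were chosen for their large differences and a gene with no difference would fall behind them by the whole of it.

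**Figure D4:**
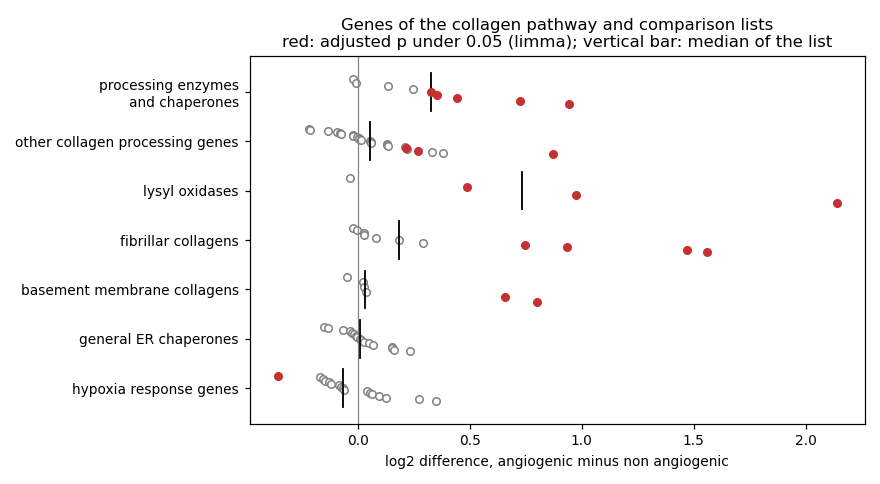
Log2 difference (angiogenic minus non angiogenic, 6 arrays each) of the measured genes of 7 lists, red where the adjusted p from limma was under 0.05, with a vertical bar at the median of each list. The 9 members have a median of 0.33, the general chaperones of the endoplasmic reticulum of 0.01 and the hypoxia response genes of -0.06.

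Hypoxia response genes were counted because P4ha1, P4ha2 and Plod2 are known members of that response. Of 17 such genes, 0 were higher and 1 was lower by limma at an adjusted p under 0.05 (2 higher and 3 lower at an unadjusted p under 0.05, and 0 higher by the methods' t-test after adjustment), and the median log2 difference was -0.06. Over all genes limma called 3.55% higher and 0.948% lower, and 7.76% and 6.59% without adjustment. Bnip3, a mitochondrial gene of mitophagy, had a log2 difference of -0.36 and was the lower gene (adjusted p = 0.0131). Ldha, the lactate dehydrogenase gene, had a difference of 0.35 that missed the threshold (adjusted p = 0.150) and reached it with the set as a block (limma, adjusted p = 1.95e-04). Among the members counted in that response, Plod2 was higher and P4ha1 and P4ha2 had differences of -0.02 and -0.01.

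Most markers of cell types that make or surround collagen were higher in angiogenic islets, against 3.55% of all genes by limma. Of 12 fibroblast markers 10 were higher by limma, and their mean level ranged from 9.01 to 9.32 in angiogenic and from 7.96 to 8.32 in non angiogenic pools. Of 12 pericyte and smooth muscle markers 11 were higher (8.53 to 8.87 against 7.90 to 8.05), of 12 endothelial markers 10 (9.48 to 9.65 against 9.0 to 9.17) and of 11 macrophage markers 9 (8.39 to 8.76 against 8.00 to 8.25). For none of these 4 lists did the means of the groups overlap, and the median log2 differences were 0.85, 0.64, 0.49 and 0.51. The fibroblast list contains Col1a1, Col1a2 and Col3a1. The study reported many of these markers as higher on these same arrays, among them Postn, Lum, Pdgfrb, Acta2, Pecam1, Cdh5 and Csf1r. Their direction is therefore not independent evidence. The part of these 4 cell types in the higher levels of Pcolce, Serpinh1, Plod2, Plod1 and P4ha3 was not tested.

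Acinar markers, which report exocrine tissue carried along with islets, varied widely within both groups, from 8.11 to 11.77 in angiogenic and from 7.88 to 12.84 in non angiogenic pools, and 0 of 11 passed in either direction (0 also at an unadjusted p under 0.05). With the acinar mean as a covariate over all arrays, 5 members were called higher, against 3.76% of all genes.

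The genes whose profiles over the 12 arrays lay nearest to those of the 3 members with the largest differences were found by the root mean square distance of log2 values centred on each gene's mean. Nearest to Pcolce were Plxdc2, a transmembrane protein gene (distance 0.0887), and Lhfp (0.0954). Those of Serpinh1 were Sting1, which encodes an innate immune adaptor (0.104), Vcan, the gene of the matrix proteoglycan versican (0.110), and Dab2, an endocytic adaptor gene (0.112). Nearest to Plod2 were Slc7a11, the cystine transporter gene (0.0794), Sipa1 (0.0846) and Aoc3, an amine oxidase gene of vessel walls and fat (0.0855). As these distances include the difference between the groups, genes with a like difference come out near.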

How the data were processed

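Total RNA of 12 islet pools was hybridised to 1 Affymetrix array each. The authors deposited 1 log2 value for each transcript cluster and array. The submitters' processing notes name RMA and Affymetrix Expression Console, and the versions, and whether all arrays were normalized jointly, are not stated in the sources used here. RMA hides an overall change of RNA content and compresses weak signals. Groups and replicate numbers came from the labels, and the number of arrays limits the precision. Of 35556 clusters, the 21789 with exactly 1 symbol in the platform annotation were used, and a gene with several (999 genes) was read from its brightest. No coordinates of clusters are given, since the array files name no build.

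Groups were compared in R 4.3.3 with limma 3.58.1 (lmFit and eBayes, two-sided, no covariate, threshold 0.05), after tests on simulated data. The comparison was repeated with the methods' t-test, a variance trend, array weights, median centring, quantile normalization, brighter genes only, the mean of all clusters, the replicate number or the set as a block, each set alone, acinar markers as a covariate, permutation within the sets and leaving out each array. The members, lists and tests were chosen with earlier results of these data known. All members are named. Each list is shown by its 3 largest differences past the threshold, and a list with fewer such genes by these plus its largest difference short of it. Fkbp10, Adamts2, Loxl2, Eno1, Ins1, Amy2b and Pnlip have no row with a single symbol here and are not reported, so 7 of 8 planned pairs were compared. The profile nearest to a member is given for up to 3 genes, and 1 such gene of Pcolce is not reported here. Promoter windows came from a RefSeq table (GRCm38.p6).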

Additional observations from a re-analysis of the deposited data

Results flagged for a closer look

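In groups of 6 arrays, values were examined for a pool far from the other 5, which chance gives in about 1 of 20 groups, and 5 of 86 groups had one. Serpinh1 stood at 9.41 in angiogenic replicate 4, against 9.10 to 9.19 in the other angiogenic pools. The mean of the acinar markers was 8.11 in angiogenic replicate 2, against 10.60 to 11.77 in the others. P4ha2 minus P4ha1 was -2.07 in non angiogenic replicate 4, against -1.66 to -1.55. In angiogenic replicate 2, Plod2 minus Plod1 was -0.86, against -1.30 to -1.18, and Plod3 minus Plod2 was 0.11, against 0.55 to 0.67. Without this pool the log2 difference of Plod2 was 0.38, with adjusted p = 0.00153 from limma.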

How the results depend on the processing

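Of 701 recomputed differences, 653 kept their direction and their side of the threshold, and of 364 recomputed counts 267 were equal to the reported ones. Without 1 array, 5 or 6 members were higher, against 2.77% to 3.59% of all genes. The calls of Pcolce, Serpinh1 and Plod2 held in every fit run, that of P4ha3 was lost in replicates 1 to 3 alone and that of Plod1 in replicates 4 to 6 alone, and with brighter genes only P4ha3 has no value. Signs near 0 turned: P4ha1 was 0.028 with array weights and -0.061 to 0.024 without 1 array, and P4ha2 was 0.015 with array weights, 0.0062 with the acinar covariate and -0.038 to 0.047 without 1 array. P4ha2 minus P4ha1 was -0.0045 after quantile normalization and -0.061 to 0.050 without 1 array, and Col4a4 was 0.016 in replicates 4 to 6 alone. The causes were not tested. The labels give no meaning to the replicate numbers. Deviations of same-numbered pools from their group means correlated across genes at 0.43, 0.38, 0.03, 0.54, 0.42 and 0.30. Once set means were removed too, the correlations were 0.11, -0.20, -0.34, 0.12, 0.04 and 0.05. What same-numbered pools share was not tested, and the numbers were not used as pairs. With the replicate block, 6 members were higher, against 5.31% of all genes, with Plod3 among them (adjusted p = 0.0357 from limma). P3h1 did not pass after median centring (adjusted p = 0.0542), P3h3 after quantile normalization (0.0845), and Bnip3 with the mean of all clusters (0.0610). All interactions of group and set stayed uncalled in the members without 1 array. Dim genes such as P4ha3 are limited by their signal over background.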
